A study of Rattus norvegicus with 6 samples.

Results

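Solute carriers are the membrane proteins that move sugars, amino acids, ions, vitamins and nucleotides across the cell surface and into organelles. Their genes are numbered by family under the symbol Slc, and 141 of them made up the group described here. A gene counted when the array's annotation gave a probe set to it alone, its symbol was Slc followed by a number, and its brightest probe set had a mean of at least 4 on the log2 scale over all 6 arrays. Of 295 Slc genes with a probe set of their own, 291 were considered and 141 reached that level, out of 10424 genes tested in all. Slc5a3, Slc6a6, Slc38a2 and Slc7a11 were left out by the rule. Members were thus selected on their mean level over all arrays, the only measured value in the rule, though the rule was written with results of these data known. Of the 141 members, 138 reached the level in both groups. Slc38a1 and Slc6a17 reached it through the control arrays (hCG means 3.71 and 3.93), and Slc29a2 through the hCG arrays (control mean 3.95). Just above the level lay Slc29a2 (4.01), Slc6a17 (4.10) and Slc30a3 (4.12), and just below it Slc26a8 (3.92), Slc2a4 (3.82) and Slc12a5 (3.81). The phosphate importer Slc34a2 (2.20) and the zinc exporter Slc30a1 (3.11) were well below it.

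The RNA came from mammospheres, which are floating spheres that mammary cells form when they cannot attach. Female Sprague Dawley rats, 55 days old at the start, received either recombinant human chorionic gonadotropin (hCG, a pregnancy hormone) at 100 IU per day or phosphate buffered saline, for 21 days. Glands were removed 21 days after the last injection, and single cells enriched for epithelium were cultured for 7 days with epidermal and basic fibroblast growth factors and heparin. The 3 Control and 3 hCG arrays each carry a number, 5, 6 or 7, and nothing states that they come from different animals, so the tests weigh the groups against the spread of these arrays alone. Since weeks lay between the last injection and the removal of the glands, the comparison asks what differs between spheres grown from previously exposed and unexposed glands.

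Carriers are commonly sorted by what they carry. Amino acid exchangers of family Slc7 work as pairs with the shared heavy chain Slc3a2, and several of their genes are known targets of the amino acid response, in which the transcription factor Atf4 acts when amino acids run short. In the mammary gland, glucose, amino acid, choline and phosphate carriers supply the cells that make milk. Most carriers of family Slc25 sit in the inner mitochondrial membrane, family Slc35 brings nucleotide sugars into the Golgi and endoplasmic reticulum, and families Slc30 and Slc39 move zinc in opposite directions.

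To show where the amino acid response could be read, the 250 bases before the gene start are given for the carrier that rose, Slc44a1, and for the 3 amino acid carriers whose window holds the letters TGATGNAA on either strand, the core of the Atf4 response element. Sequences are from RefSeq, build GRCr8, written along the gene's strand. Capitals mark the match. Slc44a1 lies on the plus strand at chr5:72858750-72858999, Slc1a4 on the minus strand at chr14:98761563-98761812, Slc7a1 on the plus strand at chr12:11664238-11664487 and Slc38a1 on the minus strand at chr7:129681402-129681651.
Slc44a1: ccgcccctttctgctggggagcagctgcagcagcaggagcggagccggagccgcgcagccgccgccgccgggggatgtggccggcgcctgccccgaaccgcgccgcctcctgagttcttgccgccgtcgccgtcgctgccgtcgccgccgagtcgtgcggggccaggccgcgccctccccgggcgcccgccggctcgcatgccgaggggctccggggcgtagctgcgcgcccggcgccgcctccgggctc
Slc1a4: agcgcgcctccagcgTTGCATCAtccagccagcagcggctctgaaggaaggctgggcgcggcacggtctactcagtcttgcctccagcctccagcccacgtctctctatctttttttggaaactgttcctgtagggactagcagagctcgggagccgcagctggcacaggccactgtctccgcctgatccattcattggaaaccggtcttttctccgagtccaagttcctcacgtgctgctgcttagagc
Slc7a1: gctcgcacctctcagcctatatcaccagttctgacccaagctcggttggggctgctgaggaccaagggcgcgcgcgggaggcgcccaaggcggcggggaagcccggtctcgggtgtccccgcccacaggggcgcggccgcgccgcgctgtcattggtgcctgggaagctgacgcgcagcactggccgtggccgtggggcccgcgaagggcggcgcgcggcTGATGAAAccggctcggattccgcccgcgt
Slc38a1: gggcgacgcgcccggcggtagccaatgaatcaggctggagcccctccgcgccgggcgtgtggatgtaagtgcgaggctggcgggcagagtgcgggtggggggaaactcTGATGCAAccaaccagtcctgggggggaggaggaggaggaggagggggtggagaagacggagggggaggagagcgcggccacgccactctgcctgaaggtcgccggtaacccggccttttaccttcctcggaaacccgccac
Of the 21 amino acid members 18 had a window in the table, and 3 of these held the letters, as did 5 of all 114 member windows (4.39%) and 3.27% of 27457 windows of the same length. The other members with a match were Slc49a4 and Slc35a2. Slc1a4 and Slc7a1 were higher on all hCG arrays than on any control array, and Slc38a1 was not, as described with the amino acid carriers. Antioxidant (TGANNNNGC), metal (TGCNCNC) and hypoxia (ACGTG) response letters, searched in the same way on both strands, were in 32.5%, 57.0% and 28.1% of member windows and in 34.6%, 43.9% and 16.9% of all windows. All windows include genes that were not on the array or were dim, and they were not matched to the members in level or base content. The differences were not tested. The motifs, which can overlap one another, and the windows shown were chosen after values and matches had been seen. A match of letters is no evidence of binding.

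Across all members, spheres from hCG-treated rats had 1 carrier gene that rose and 1 that fell. Slc44a1, a choline transporter of the cell surface that feeds phospholipid synthesis, rose by 0.64 on the log2 scale, and Slc48a1, which moves heme out of lysosomes, fell by 0.73. These 2 calls are 1.42% of the members, where 1.82% of all 10424 genes passed the same limma test with Benjamini-Hochberg adjustment, so the share called was near that of genes in general. Carriers lay more often on the lower side: 85 lay below 0 and 56 above (39.7% above 0, against 55.8% of all genes and 56.9% of genes with a mean of at least 4). The 3 hCG values lay wholly below the 3 control values in 30 members (21.3%) and wholly above them in 14 (9.93%), while for all genes the shares were 12.3% lower and 19.3% higher. Among genes with a mean of at least 4, the level that members had to reach, 12.9% were lower and 20.9% higher in this way. Counted in either direction, 44 members (31.2%) and 31.6% of all genes did not overlap. The share of members below 0 was 60.3%, or 55.3% with arrays centred on their medians and 64.5% after cyclic loess, where 44.2%, 41.0% and 48.8% of all genes lay below 0. The median log2 change was -0.05 over members and 0.03 over all genes. At an unadjusted p under 0.05, 27 members were lower and 10 higher, or 26.2% together, against 24.1% of all genes. A difference of at least 1.5-fold was seen in 2 members higher (1.42%) and 9 lower (6.38%), where 3.76% and 3.58% of all genes reached it. The 4 carriers left out by the rule all had changes below 0, and with them included the inositol carrier Slc5a3 (-2.14) was a further call.

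**Figure D1:**
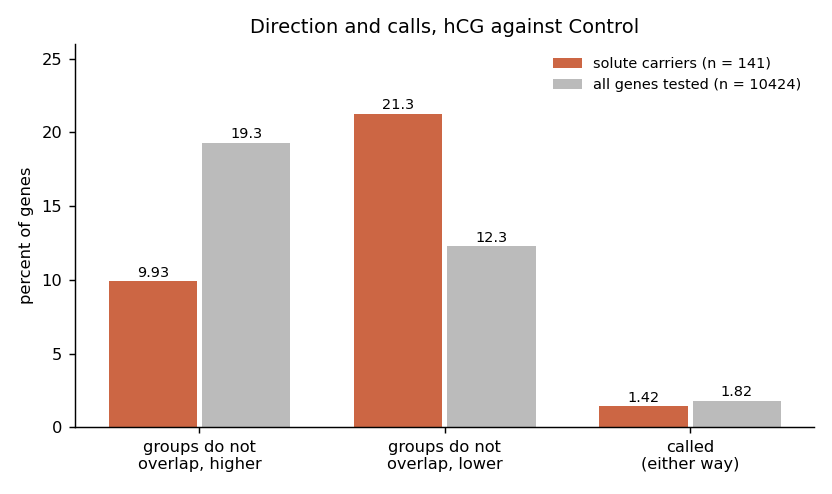
Percent of the 141 solute carrier genes and of all 10424 tested genes whose 3 hCG values lay wholly above or wholly below the 3 Control values, and percent called by limma at an adjusted p under 0.05. Members were below without overlap in 21.3% against 12.3% of all genes, above in 9.93% against 19.3%, and called in 1.42% against 1.82%.

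**Figure D2:**
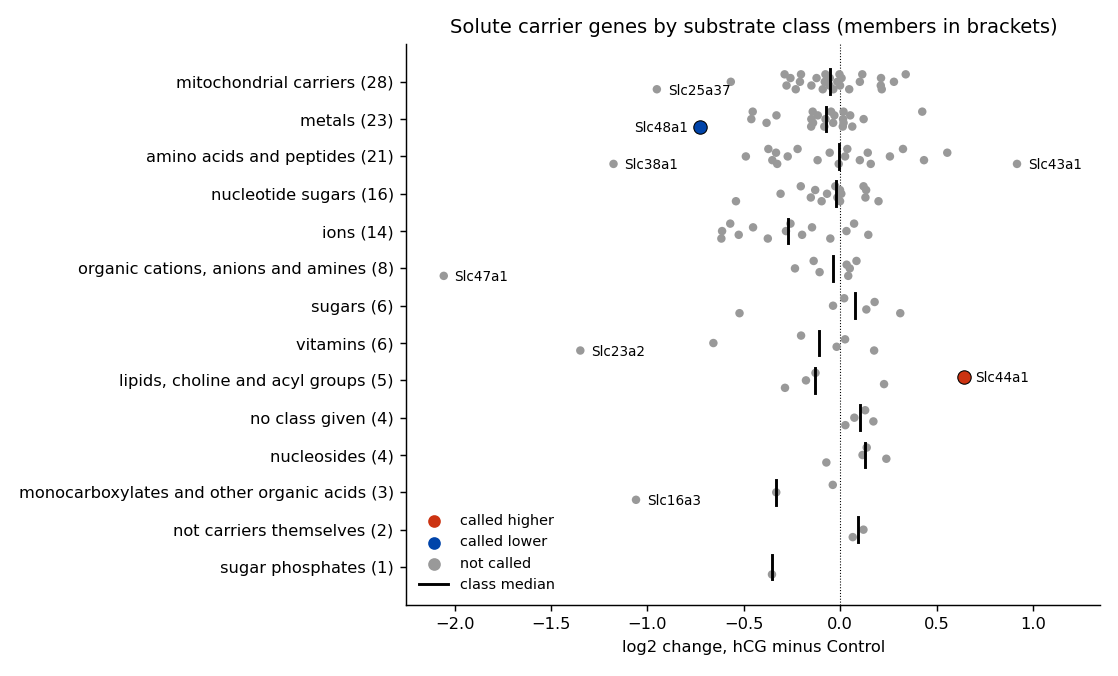
Log2 change (hCG minus Control, n = 3 arrays per group) of each of the 141 genes, in rows by substrate class; black bars are class medians and large coloured points the called genes. Most points lie within 0.5 of 0, and the largest differences, Slc47a1, Slc23a2, Slc38a1 and Slc16a3, lie on the lower side in 4 classes.

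The values behind the 2 calls were well apart. Slc44a1 read 7.96, 7.93 and 8.07 (log2) on Control 5, 6 and 7, and 8.75, 8.57 and 8.57 on hCG 5, 6 and 7. All hCG values were above all control values, with a log2 change of 0.64 (SE 0.09, 1.56-fold, limma adjusted p = 0.0368). Its other tested probe sets had changes of 0.80 and 0.46, also higher. Slc48a1 read 7.31, 7.15 and 6.95 in the controls and 6.52, 6.32 and 6.39 in the hCG group, with no overlap and a log2 change of -0.73 (SE 0.12, 1.65-fold lower, limma adjusted p = 0.0382). Next in order came Slc39a13, a zinc carrier of intracellular vesicles, which missed the threshold. It read 6.41, 6.35 and 6.42 in the controls and 5.83, 6.00 and 5.99 in the hCG group, again with no overlap (log2 change -0.45, SE 0.08, limma adjusted p = 0.05004). When 1 array was left out, the change of Slc44a1 stayed between 0.58 and 0.68 and that of Slc48a1 between -0.82 and -0.64. The adjusted p-values moved more: limma called 0 of all genes without Control 5, Control 6, hCG 5 or hCG 7 (1451 to 1955 genes had an unadjusted p under 0.05 then, where the full set gave 2510), and without hCG 6 Slc48a1 had an adjusted p of 0.0578. Without Control 7 limma called 8 members, 3 higher and 5 lower, and without hCG 6 it called 4. These are 5.67% and 2.84% of members, near the 5.62% and 3.23% of all genes called in the same settings. Every call given for a single carrier without these arrays is one of those.

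Several larger differences did not pass, and their arrays were more widely spread. Slc47a1, which exports organic cations in exchange for protons, read 10.35, 10.21 and 9.24 in the controls and 7.14, 8.75 and 7.74 in the hCG group. Its groups did not overlap, and its log2 change of -2.06 (SE 0.45, limma adjusted p = 0.0663) was the largest of any member. Slc23a2, a sodium-coupled vitamin C carrier, read 8.66, 8.82 and 8.31 against 6.60, 7.83 and 7.32, a log2 change of -1.35 (SE 0.30, adjusted p = 0.0688) by limma. Its other tested probe set gave -0.29. In both genes hCG 6 was the hCG array nearest to the controls and hCG 5 the farthest. Without hCG 6, limma called both lower (log2 change -2.49 and -1.64, adjusted p = 0.0353 and 0.0386), and without Control 7 it called Slc47a1 (-2.40, adjusted p = 0.0464). Leaving out hCG 5 gave -1.69 and -1.02, and neither gene was called. The same order of hCG arrays was common: among the 30 members lower without overlap, hCG 6 lay nearest to the control mean in 21 (70.0%) and hCG 5 farthest in 17 (56.7%). Of the 1281 genes lower without overlap in the whole table, hCG 6 was nearest in 63.9% and hCG 5 farthest in 56.4%, so this order was shared with other genes.

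**Figure D3:**
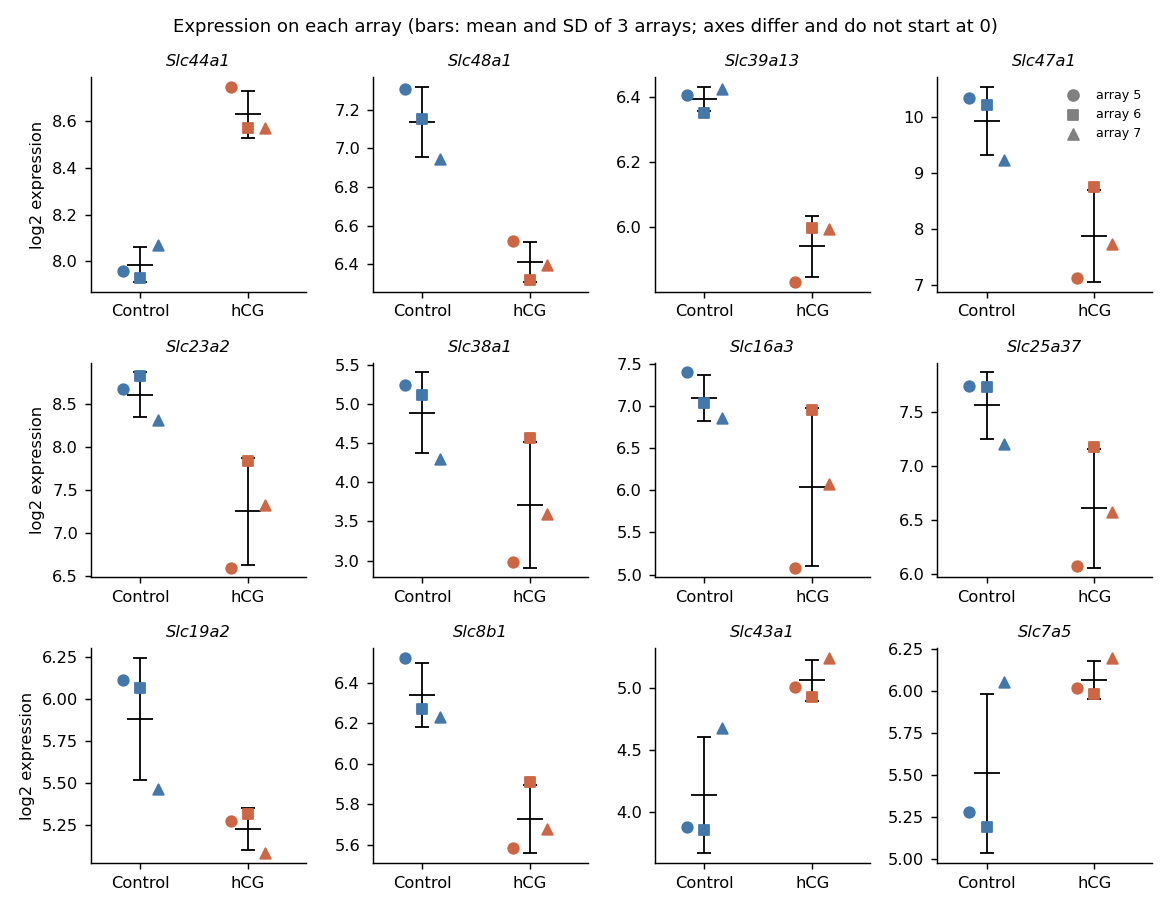
Log2 expression of 12 carriers on each array (circle array 5, square 6, triangle 7; blue Control, orange hCG), with the mean and SD of 3 arrays per group; scales differ between panels. Slc44a1, Slc48a1 and Slc39a13 show tight, separate groups, while in Slc47a1, Slc38a1, Slc16a3 and Slc25a37 hCG 6 (square) is the hCG array nearest to the controls and hCG 5 (circle) the farthest.

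Amino acid and peptide carriers held 21 members, of which 10 lay above and 11 below 0, with a median log2 change of -0.01 (0.0086 with arrays centred on their medians). None passed limma's test over all genes, and at an unadjusted p under 0.05 there were 4 higher and 3 lower, where 14.4% and 9.64% of all genes were. Among those higher were carriers of large neutral and cationic amino acids. Among those lower were Slc43a2, of the same family as Slc43a1, and the cationic amino acid carrier Slc66a1. Slc43a1, an exporter and importer of leucine-like amino acids, read 3.88, 3.86 and 4.68 in the controls and 5.01, 4.93 and 5.24 in the hCG group, without overlap. Its log2 change of 0.92 (SE 0.23, limma adjusted p = 0.0844) was the largest positive one of any member, though Control 5 and 6 were below the level of 4 and Control 7 stood apart from them. Without Control 7 it was called (1.19, adjusted p = 0.0131), and without Control 6 its change was 0.78 and not called. Slc1a4, which exchanges alanine, serine and cysteine, read 5.12, 4.99 and 4.89 against 5.32, 5.40 and 5.58, all hCG values being higher (0.43, SE 0.10, limma adjusted p = 0.0790). The arginine and lysine importer Slc7a1 differed by 0.33 (SE 0.10, limma adjusted p = 0.117), without overlap, and by 0.09 on its other tested probe set.

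The essential amino acid exchanger Slc7a5 read 5.28, 5.19 and 6.05 in the controls and 6.02, 5.98 and 6.19 in the hCG group. Control 7 was as high as the hCG arrays, so the groups overlapped (log2 change 0.56, SE 0.22, limma adjusted p = 0.194), and without Control 7 the change was 0.83 and called (adjusted p = 0.0189). Without Control 6 the change of Slc7a5 was 0.40 and not called. Its heavy chain Slc3a2 (0.16, SE 0.09) and the glutamine importer Slc1a5 (0.14, SE 0.15) overlapped between groups, as did Slc38a10 (-0.05, SE 0.08). On the lower side, the sodium-coupled glutamine importer Slc38a1 read 5.25, 5.12 and 4.30 in the controls and 2.98, 4.57 and 3.59 in the hCG group. Its groups overlapped through Control 7 and hCG 6 (log2 change -1.18, SE 0.43, limma adjusted p = 0.161), and its other tested probe set had a change of -0.22. Slc66a1, the lysosomal exporter of cationic amino acids, was lower without overlap (-0.49, SE 0.12, adjusted p = 0.0809 by limma), with -0.53 and -0.36 for its other tested probe sets. Slc43a2 was also lower without overlap (-0.37, SE 0.10, limma adjusted p = 0.106), and its other tested probe set gave -0.68.

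Genes of the amino acid response, none of them a member, were set beside these carriers. The median log2 change of 17 such genes was 0.30, and 13 of them lay above 0. Only the pseudokinase gene Trib3, an Atf4 target, passed limma over all genes: it rose by 0.69 (SE 0.12, adjusted p = 0.0439), which is 1 of 17 against 1.01% of all genes higher. At an unadjusted p under 0.05, 10 were higher and 1 lower, where 14.4% and 9.64% of all genes were. The asparagine synthetase gene Asns differed by 0.50 (SE 0.12, adjusted p = 0.0797), the serine synthesis gene Psat1 by 0.84 (SE 0.21, adjusted p = 0.0862) and Atf4 itself by 0.20 (SE 0.08, adjusted p = 0.165), all by limma and all without overlap. Ddit4, an inhibitor of the growth kinase complex, differed the other way (-0.49, SE 0.15, limma adjusted p = 0.119). Of the amino acid carriers 10 of 21 lay above 0, and the difference between these lists was not tested.

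**Figure D4:**
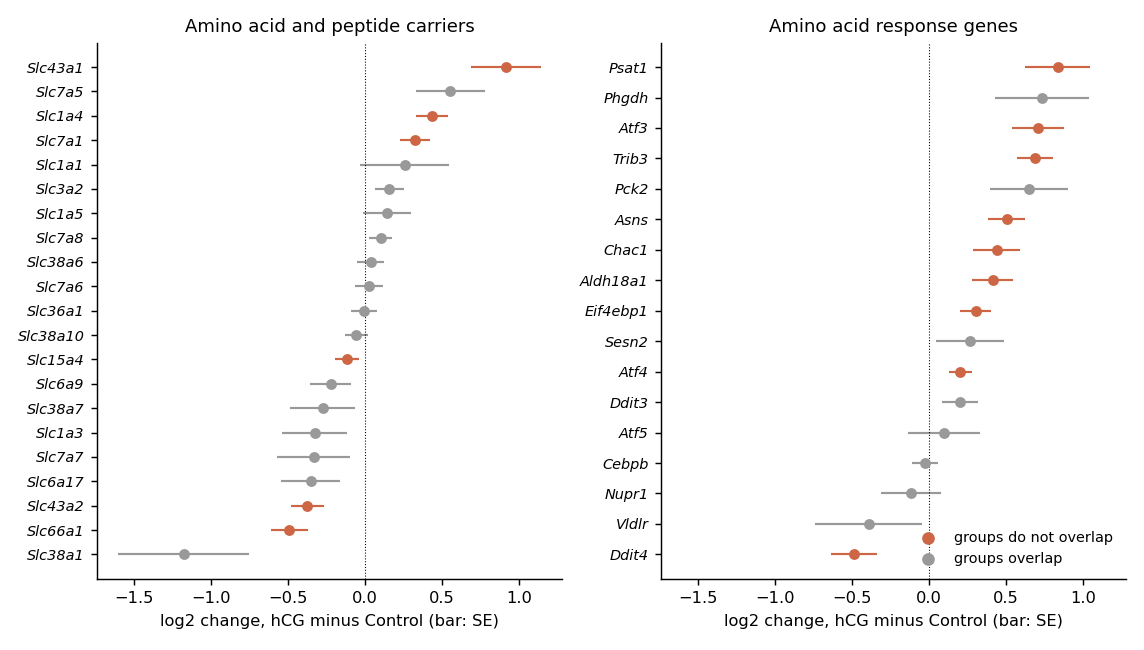
Log2 change with SE (hCG minus Control, n = 3 arrays per group) of the 21 amino acid and peptide carriers (left) and of 17 amino acid response genes (right), orange where the groups did not overlap. The carriers run from -1.18 (Slc38a1) to 0.92 (Slc43a1) about a median of -0.01, while 13 of the 17 response genes lie above 0.

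Of 14 ion carriers 11 lay below 0, where 44.2% of all genes did, with a median log2 change of -0.27. The groups did not overlap in 5, all lower (12.3% of all genes), and limma called none (5 at an unadjusted p under 0.05, all lower, against 9.64% of all genes). The difference between the class and other genes was not tested. Slc8b1, the sodium-calcium exchanger of mitochondria, read 6.52, 6.27 and 6.23 in the controls and 5.59, 5.91 and 5.68 in the hCG group. Its log2 change was -0.62 (SE 0.12, limma adjusted p = 0.0573), and limma called it once Control 7 (adjusted p = 0.0497) or hCG 6 (adjusted p = 0.0453) was left out. Without Control 5 its change was -0.53 and not called. Both phosphate importers of family Slc20 were lower without overlap. Slc20a1 read 10.10, 10.21 and 10.07 against 9.14, 9.84 and 9.56 (-0.61, SE 0.17, limma adjusted p = 0.108), and Slc20a2 differed by -0.57 (SE 0.17, adjusted p = 0.116 by limma). All 4 members of family Slc4 lay below 0 (median -0.41). Slc4a11, which unlike the others is not a bicarbonate carrier, was the one without overlap (-0.53, SE 0.17, limma adjusted p = 0.126). The bicarbonate carriers Slc4a2 (-0.45, SE 0.19), Slc4a7 (-0.38, SE 0.24) and Slc4a4 (-0.26, SE 0.18) overlapped between groups. Slc4a7 ran from -0.62 without Control 7 to -0.14 without Control 5, and its other tested probe set gave -0.76. The sodium, potassium and chloride importer Slc12a2 had a change of 0.15 (SE 0.14), with Control 5 the lowest array, and one of -0.0027 without it. Within the ion class, the median deviation from the control mean was -0.31 on hCG 5, -0.15 on hCG 6 and -0.24 on hCG 7, against -0.06 to 0.07 on control arrays.

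Metal and heme carriers held 23 members, 15 below 0, with a median of -0.08. Slc48a1 was the only call (4.35% of the class, where 1.82% of all genes were called). The groups did not overlap in 5 (21.7%, against 31.6% of all genes), 4 lower and 1 higher, where 12.3% and 19.3% of all genes were. At an unadjusted p under 0.05 there were 6 (26.1%, against 24.1% of all genes). Besides Slc48a1 and Slc39a13, the iron importer Slc11a2 read 7.11, 7.07 and 7.19 in the controls and 6.72, 6.84 and 6.67 in the hCG group, without overlap (log2 change -0.38, SE 0.08, limma adjusted p = 0.0657). Its other tested probe set gave -0.65. The zinc and iron importer Slc39a14 read 9.32, 9.37 and 9.31 against 8.42, 9.20 and 9.0, with hCG 6 again close to the controls (-0.46, SE 0.19, limma adjusted p = 0.203). Its change was -0.62 without hCG 6 and -0.23 without hCG 5. The zinc importer Slc39a10 differed the other way, at 7.34, 7.49 and 6.92 against 7.83, 7.53 and 7.67 (0.43, SE 0.16, adjusted p = 0.173 by limma), with Control 6 close below hCG 6. The 9 importers of family Slc39 had a median of -0.14, with changes of -0.14 for both Slc39a1 and Slc39a6. The 6 zinc exporters of family Slc30 ran from -0.15 to 0.06 and overlapped in every case. Ferroportin, Slc40a1, which exports iron, had a change of 0.12 (SE 0.20) with overlapping groups.

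Mitochondrial carriers were the largest class, with 28 members, 19 of them below 0 and a median of -0.05. The class follows family Slc25 and so holds the peroxisomal carrier Slc25a17 and Slc25a46 of the outer membrane, whose groups overlapped. Limma called none, and 8 (28.6%) had an unadjusted p under 0.05, against 24.1% of all genes. Of these 5 were lower and 3 higher, where 9.64% and 14.4% of all genes were. Slc25a37, which brings iron into mitochondria for heme and iron-sulfur clusters, read 7.74, 7.74 and 7.21 in the controls and 6.08, 7.18 and 6.58 in the hCG group, with Control 7 and hCG 6 nearly touching (log2 change -0.95, SE 0.29, limma adjusted p = 0.117). The calcium-sensitive carriers of ATP and phosphate Slc25a25 (-0.57, SE 0.17) and Slc25a24 (-0.29, SE 0.09) and the citrate exporter Slc25a1 (-0.26, SE 0.10) were lower without overlap. On the other side, the ADP and ATP exchangers Slc25a4 (0.28, SE 0.10) and Slc25a5 (0.22, SE 0.09) were higher without overlap, and the ornithine carrier Slc25a15 had a change of 0.34 (SE 0.12) with overlap, and 0.14 and -0.06 on its other tested probe sets. Limma adjusted p of these 6 lay between 0.118 and 0.194. The phosphate carrier Slc25a3 had a change of -0.05 (SE 0.08), smaller than its SE.

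Sugar carriers were few, with 6 members, 4 above 0 and a median of 0.08. None was called by limma, and 1 (16.7%) had an unadjusted p under 0.05, against 24.1% of all genes. The main glucose importer Slc2a1 read 8.39, 8.31 and 8.35 in the controls and 7.30, 8.28 and 7.91 in the hCG group. All hCG values were lower, hCG 6 only just (log2 change -0.52, SE 0.23, limma adjusted p = 0.225). The change was -0.75 without hCG 6 and -0.26 without hCG 5. The glucose importer Slc2a3 had a change of 0.14 (SE 0.18) and one of -0.22 on its other tested probe set. Slc50a1, a sugar carrier of the Golgi, was higher without overlap (0.31, SE 0.11, limma adjusted p = 0.154), as was Slc45a4 (0.18, SE 0.09, adjusted p = 0.283). Of 3 monocarboxylate carriers, the lactate exporter Slc16a3 read 7.40, 7.03 and 6.85 in the controls and 5.08, 6.96 and 6.07 in the hCG group. hCG 6 lay above Control 7, and the log2 change of -1.06 (SE 0.44, limma adjusted p = 0.199) ranged from -1.52 without hCG 6 to -0.58 without hCG 5. Slc16a6 was lower without overlap (-0.33, SE 0.11, adjusted p = 0.145 by limma), and Slc16a1, which carries lactate and pyruvate, had a change of -0.04 (SE 0.17). Slc37a4, the glucose 6-phosphate carrier of the endoplasmic reticulum, was lower without overlap (-0.35, SE 0.10, limma adjusted p = 0.111).

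All 4 nucleoside carriers overlapped between groups, where 31.6% of all genes did not, and their median was 0.13. Limma called 0, and 0 had an unadjusted p under 0.05, where 24.1% of all genes did. Slc29a1, the equilibrative nucleoside carrier of the cell surface, read 5.47, 6.52 and 7.12 in the controls and 6.43, 6.30 and 6.79 in the hCG group. The control arrays spread more widely than the hCG arrays, and the log2 change of 0.14 (SE 0.39) ran from -0.31 without Control 5 to 0.51 without Control 7. Slc28a2, which takes up purine nucleosides with sodium, had a change of 0.24 (SE 0.16), Slc29a2 0.12 (SE 0.11) and the lysosomal Slc29a3 -0.07 (SE 0.09), or -0.43 on its other tested probe set. Of 16 nucleotide sugar carriers and relatives 11 lay below 0, with a median of -0.02. Limma called 0, and 2 (12.5%) had an unadjusted p under 0.05, against 24.1% of all genes. The orphan Slc35e4 (-0.54, SE 0.14, limma adjusted p = 0.0960), the sulfate donor carrier Slc35b2 (-0.31, SE 0.12) and Slc35b4 (-0.15, SE 0.08) were lower without overlap. The other tested probe set of Slc35b4 gave 0.03. The sialic acid donor carrier Slc35a1 was higher without overlap (0.20, SE 0.12, limma adjusted p = 0.343), though its other tested probe sets gave -0.09 and -0.03. Slc35b1 (-0.13, SE 0.11) and Slc35f5 (-0.07, SE 0.11) overlapped.

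Of 6 vitamin carriers 3 were lower and 1 higher without overlap, where 12.3% and 19.3% of all genes were. Limma called 0, with 3 lower at an unadjusted p under 0.05 (9.64% of all genes), and the median was -0.11. Besides Slc23a2, the thiamine importer Slc19a2 read 6.12, 6.07 and 5.47 in the controls and 5.28, 5.32 and 5.08 in the hCG group (log2 change -0.66, SE 0.18, limma adjusted p = 0.104), and it was called without Control 7 (-0.87, adjusted p = 0.0183). Without Control 5 its change was -0.54 and not called. The riboflavin importer Slc52a2 differed by -0.20 (SE 0.07, limma adjusted p = 0.166). The folate importer Slc19a1 read 4.57, 4.36 and 4.66 against 4.73, 4.69 and 4.71, slightly higher on all hCG arrays (0.18, SE 0.10, limma adjusted p = 0.320), and the biotin carrier Slc5a6 had a change of 0.03 (SE 0.11). In the lipid and choline class, Slc44a2 (0.23, SE 0.14), the fatty acid importers Slc27a1 (-0.29, SE 0.15) and Slc27a4 (-0.18, SE 0.11) and the acetyl-CoA carrier Slc33a1 (-0.13, SE 0.08) stood beside Slc44a1, with limma adjusted p from 0.299 to 0.383. Among the 8 carriers of organic ions and amines, besides Slc47a1, the creatine importer Slc6a8 (-0.14, SE 0.08) and the carnitine importer Slc22a5 (-0.11, SE 0.08) were lower without overlap, and the polyamine carrier Slc18b1 had a change of 0.03 (SE 0.11). The class medians of these groups were -0.13 for lipids and choline and -0.04 for organic ions and amines.

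The 2 members that are not carriers themselves, Slc7a6os and Slc4a1ap, and the 4 members given no class, among them Slc66a2 (0.17, SE 0.11), Slc66a3 (0.13, SE 0.09) and Slc49a4 (0.07, SE 0.07), were not called. Where a member had a further tested probe set, the sign was the same in 38 of 48 cases. The glutamate importer Slc1a3 had a change of -0.33 on its chosen probe set and -1.32 on the other. Members varied more on control than on hCG arrays, with a median SD of 0.16 against 0.09 (0.14 and 0.09 over all genes), and Control 7 was the control array farthest from the mean in 76 of 141 members (53.9%, against 52.5% of all genes).

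Carriers whose symbol is not Slc followed by a number were set beside the members. Of 16 tested ABC transporters, pumps that spend ATP to move drugs, lipids and conjugates, 12 lay below 0 (median -0.19), and 3 fell over all genes, where 0.815% of all genes did: Abcc4 (-0.71, SE 0.12, limma adjusted p = 0.0439), Abcc5 (-0.86, SE 0.15, adjusted p = 0.0461) and Abcc1 (-0.56, SE 0.10, adjusted p = 0.0493). With p-values adjusted over all probe sets, Abcc1 had an adjusted p of 0.0513 by limma. Of 24 other carriers without a numbered Slc symbol 16 lay below 0 and limma called none. At an unadjusted p under 0.05 there were 6 (25%, against 24.1% of all genes). The organic anion carrier Slco4a1 had the largest change (-1.60, SE 0.31, limma adjusted p = 0.0540). Of 22 partners and regulators of carriers limma called none, and 8 (36.4%) had an unadjusted p under 0.05, against 24.1% of all genes. Sgk1, a kinase that raises carrier activity at the membrane, differed by 0.52 (SE 0.10, limma adjusted p = 0.0540), and Heph, which oxidises iron leaving through Slc40a1, by 0.88 (SE 0.16, adjusted p = 0.0533). Heph was dim, with a mean of 2.68 in the controls and 3.55 in the hCG group, where probe sets below 2.67 over all arrays were not tested. Bsg, the chaperone of lactate carriers, differed by -0.24 (SE 0.09, limma adjusted p = 0.174).

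Several measures moved with the groups, and their part in the carrier results was not tested. Mean levels of 6 tested endothelial markers, relative to the control mean, were -0.33, -0.14 and 0.47 in the controls and 1.06, 1.22 and 1.08 in the hCG group, those of 6 fibroblast markers 0.00 ± 0.02 (SD, n = 3) and 0.37 ± 0.10, and those of 6 basal markers 0.00 ± 0.57 and 0.70 ± 0.19 (exact permutation test, two-sided p = 0.1 for each, the smallest possible). The basal groups nearly touched, at 0.468 on Control 7 and 0.474 on hCG 5. Limma called 3 of the 6 tested endothelial markers (of 8 listed), 1 fibroblast marker and 0 basal markers (3 at an unadjusted p under 0.05), all higher, as well as 1 pericyte marker higher and 1 luminal marker lower. Of all genes 1.01% were called higher and 0.815% lower, and 14.4% were higher at an unadjusted p under 0.05. The pericyte marker, Rgs5, passed the filter (2.67) through the hCG arrays, with a mean of 2.47 in the controls and 3.13 in the hCG group. Of 3 tested macrophage markers out of 6 the level was 0.38, -0.10 and -0.28 against -0.67, -0.08 and -0.58, with hCG 6 again near the controls (exact permutation, two-sided p = 0.3). This mean joins markers of opposite direction, none of them called. Cd68 (-1.33) and Cd14 (-0.66) were lower without overlap, while Adgre1 (0.65) overlapped and was highest on hCG 6 (4.71). Csf1r, Cd163 and C1qa were below the filter. Levels of 7 luminal markers overlapped (exact permutation, two-sided p = 0.4), 3 tested pericyte markers differed by 0.22 (exact permutation, two-sided p = 0.2), and all 4 adipocyte markers were below the filter. Poly-A transcripts added before labelling had a mean log2 level of 5.56 ± 0.14 (SD, n = 3) on control arrays and 4.51 ± 0.34 in the hCG group (exact permutation, two-sided p = 0.1), with 4.90 on hCG 6 against 4.32 and 4.31 on hCG 5 and 7. In such bulk RNA, fewer cells of a type and less RNA per cell cannot be told apart.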

How the data were processed

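RNA of 6 mammosphere samples (3 Control, 3 hCG) was amplified in repeated rounds and hybridised to Affymetrix 3' arrays, per the labels' protocols. The authors deposited 1 table of processed values for its probe sets. Its values behave as log2 expression, but scale and normalization are not given in the sources used here, and RMA, MAS5 and limma appear in the submitters' processing notes without a stated role. The number of arrays limits the precision, and differences in scaling between arrays move all genes together.

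Of 31042 probe sets besides 57 for control transcripts, 20826 had 1 gene symbol in the platform annotation, 436 several and 9780 none. Of the 20826, 20758 were matched to RefSeq's gene table by gene identifier and took its symbol. Members were picked by the annotation's symbol. The dimmest 40% of probe sets were dropped, and 18625 were fitted with limma 3.58.1 in R 4.3.3 (hCG against Control, no covariates). The brightest probe set stood for a gene, p-values were adjusted by Benjamini-Hochberg over 10424 genes, and the threshold was 0.05 (190 genes called, 177 when adjusted over probe sets). The fit was tested on simulated data. Marker and spike levels were compared by exact permutation, which cannot go below p = 0.1.

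Whether array numbers pair the samples is not known. Deviations of same-numbered arrays correlated at -0.09, 0.13 and 0.00, and those of differently numbered arrays at -0.19 to 0.18. Deviations cancel out within each small group, so these correlations are tied to each other and cannot decide the question.

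The members and lists were chosen with earlier results of these data known. Substrate classes were also revised after the members' values had been seen: nucleoside and nucleotide sugar carriers were split, Slc66a3 and family Slc10 were given no class, and Slc7a6os and Slc4a1ap were set apart as not carriers. The counts of array positions, the 1.5-fold line and the 12 genes plotted by array were likewise chosen afterwards. Genes were named by a rule: all called members, the 3 brightest and the 3 of smallest p in each class of at least 3, the 8 largest changes in each direction, the genes nearest the level, and a list of well-known carriers. Slc1a3, Slc4a2, Slc4a11, Slc25a17, Slc25a46, Slc37a4 and Slc43a2 fall outside it and were chosen after their values were seen. Alternatives covered the filter, scaling, array weights, variance model, probe set choice, level, threshold, a replicate block and each array left out.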

Additional observations from a re-analysis of the deposited data

How the results depend on the processing

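With array number as a replicate block, limma called 0 members higher and 0 lower (adjusted p = 0.0667 for Slc44a1 and 0.0573 for Slc48a1), 0 amino acid response genes, 1 ABC transporter and 1 other carrier without a numbered Slc symbol. In that setting 1.13% of all genes were called. Members called lower were 2 with no filter, with the dimmest 60% left out, with quantile normalization, with cyclic loess and with the 4 left-out carriers included, 3 with a variance trend and 5 when a gene's probe sets were averaged. Calls in both directions were 2.13% of members with no filter, quantile normalization or cyclic loess. Of all genes 1.88%, 1.84% and 1.88% were called in these settings. The shares were 2.34% against 2% with the dimmest 60% left out, and 2.07% against 1.82% with the left-out carriers. The trend gave 2.84% against 2.94%, and averaged probe sets 4.26% against 2.43%. An adjusted p under 0.10 gave 3 higher and 8 lower (7.8% of members, 8.1% of all genes), and array weights 10 higher and 24 lower (24.1% of members, 25.5% of all genes). Other carriers without a numbered Slc symbol had 1 call with no filter, with the trend and with averaged probe sets, 2 at the looser threshold and 7 with array weights. Partners and regulators had 2 calls in those first 3 settings and at the looser threshold, 1 with median centring and 5 with array weights. Amino acid response genes had 4 calls at the looser threshold and 12 with array weights, and ABC transporters 6 and 7. With the main filter the lists held 24 other carriers, 22 partners and regulators, 17 response genes and 16 ABC transporters. Of all genes 8.1% were called at the looser threshold, 25.5% with array weights and 2.03% with median centring.

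Class medians moved with the level and the scaling. For organic ions and amines the median was 0.034 with the dimmest 60% left out and at a level of 5 or 3, and -0.11 with the left-out carriers. For vitamins it was -0.20 with the dimmest 60% left out and -0.43 at a level of 5, where ions had -0.38 and lipids and choline 0.050. Sugars had -0.031 at a level of 3 and -0.012 with averaged probe sets. Amino acids had -0.054 with the left-out carriers, 0.026 with the dimmest 60% left out and at a level of 5, and 0.0086 with median centring. Cyclic loess gave -0.086 for mitochondrial carriers and -0.050 for nucleotide sugars. Members without a class had 0.12 with median centring, 0.060 with cyclic loess, 0.082 with array weights, 0.13 at a level of 3 and 0.074 with the left-out carriers. Array weights turned Slc18b1 to -0.012 and Slc40a1 to -0.18, and averaged probe sets turned Slc2a3 to -0.044.

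Leaving out 1 array gave 0 to 3 members called higher and 0 to 5 lower, 16 to 24 wholly higher, 34 to 44 wholly lower and 81 to 90 below 0. With fewer arrays groups separate more easily, so the wholly higher and lower counts exceed the 14 and 30 of the full set. They are no sign of stability, and the shares over all genes were not counted for them. Lists had 0 to 2 (other carriers), 0 to 1 (partners), 0 to 5 (amino acid response) and 0 to 5 (ABC transporters) calls. Both counts of 5 came without Control 7, where 5.62% of all genes were called. Without hCG 6 the share of all genes was 3.23%, and it was 0 without Control 5, Control 6, hCG 5 or hCG 7. Class medians ran from -0.33 to -0.19 for ions, -0.12 to -0.046 for metals, -0.043 to 0.024 for amino acids, -0.15 to -0.075 for lipids and choline, -0.070 to -0.016 for organic ions and amines, -0.065 to -0.033 for mitochondrial carriers, -0.38 to -0.24 for monocarboxylates, -0.16 to -0.057 for vitamins, -0.051 to 0.18 for nucleosides, 0.012 to 0.18 for sugars, -0.079 to -0.0071 for nucleotide sugars and 0.070 to 0.13 for members without a class. Changes that crossed 0 ran from -0.0027 to 0.22 (Slc12a2), -0.23 to 0.10 (Slc16a1), -0.020 to 0.14 (Slc18b1), -0.31 to 0.51 (Slc29a1), -0.11 to 0.0047 (Slc29a3), -0.17 to 0.0088 (Slc35f5), -0.061 to 0.31 (Slc40a1) and -0.029 to 0.11 (Slc5a6). The causes were not tested. Median centring, quantile normalization, robust variance and adjustment over all probe sets kept both called members. Pseudocounts for linear values were not run, since the values are on a log scale.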
